A study of Mus musculus with 2 samples.

Results

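The 10 genes described here encode abundant proteins of blood plasma: Alb, Afp, Ttr, Trf, Ahsg, Fga, Fgb, Fgg, Ambp and Apoh. They were listed by name and matched by Ensembl identifier, and all 10 were found among the 43346 mouse gene entries of each library, all annotated as protein-coding. The samples were 2 total RNA libraries of mouse intestine at embryonic day 15.5, strain B6NCrl, from healthy embryos of both sexes, which form 1 group with no treatment or mutation named in the labels. Replicate 1 pooled 78 embryos and replicate 2 pooled 62 embryos, so each value is an average over a pool. With 1 group there is no differential test, and the comparison is of 1 pool with the other. Levels are given as TPM, a level per unit of transcript length scaled to the same total in each library. A ratio is TPM in replicate 1 over TPM in replicate 2 after adding 1 to each, which understates the ratio of low genes. Genes with 1 TPM or more in each library count as detected, and 14986 genes did so.

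Plasma proteins are secreted mostly by hepatocytes, and before birth also by the yolk sac. Both hepatocytes and gut epithelium derive from endoderm and share regulators such as Hnf4a, and some plasma protein genes are transcribed in fetal gut. Albumin, alpha-fetoprotein, transthyretin and transferrin carry small molecules or metal in blood, fibrinogen is the substrate of clotting, and the remaining members inhibit proteases or mineral growth or bind phospholipid. In tissue RNA of this kind, a smaller number of cells of a type and less RNA per cell cannot be told apart.

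All 10 genes were detected, and all 10 were higher in replicate 1. Their summed level was 707 TPM in replicate 1 and 491 TPM in replicate 2. Ratios ran from 1.28 for Fgb to 1.92 for Ahsg, with a median of 0.54 on the log2 scale, where the median of all detected genes was -0.02. By any amount, 44.5% of detected genes were higher in replicate 1. All 10 members were over 25% higher, as were 4.82% of detected genes, and 4 were over 1.5-fold higher (Ahsg, Fga, Alb and Fgg), as were 1.47% of detected genes. None passed 2-fold, which 0.507% of detected genes did. No member was lower in replicate 1, where the same 3 limits were passed downward by 4.06%, 0.754% and 0.187% of detected genes. Detected genes whose mean level lay within the range of the members, from 5.32 to 198 TPM, numbered 10355. Of these, 42.2% were higher in replicate 1 by any amount, and 3.38%, 1.11% and 0.435% passed the 3 limits upward, against 3.15%, 0.531% and 0.164% downward. The counts gave the same direction: the 10 genes held 29846 estimated counts in replicate 1 and 23984 in replicate 2, a ratio of 1.48 relative to all mouse gene counts (95% exact binomial interval 1.45 to 1.502). Such intervals cover counting error only, not the variation between pools. Scaling counts by the ERCC spike-ins moved the median log2 ratio of all detected genes to -0.27. Under that scaling all 10 members stayed higher in replicate 1, 5 were over 25% higher and 1 (Ahsg) was over 1.5-fold higher. The shares of all detected genes past these limits were computed for TPM only, so they do not apply to these counts. The members' median log2 ratio lay 0.57 above that of all detected genes with ERCC scaling, against 0.56 in TPM. Other genes differed between the pools in the same direction: all 11 detected pancreatic acinar genes of 14 listed were over 1.5-fold higher in replicate 1, with a summed level of 4974 TPM in replicate 1 and 1858 TPM in replicate 2. Their part in the members' ratios was not tested.

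**Figure D1:**
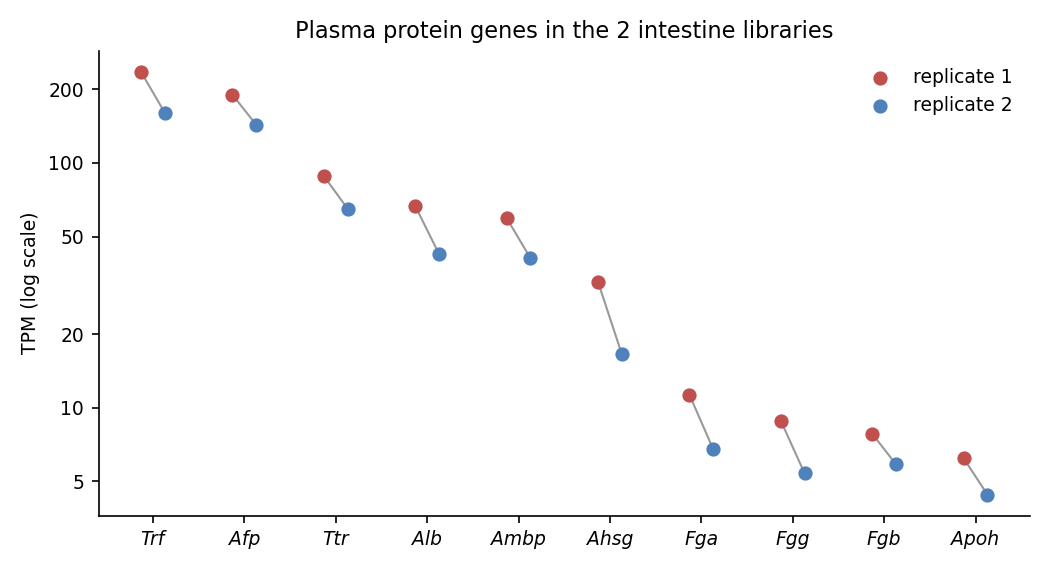
TPM of each plasma protein gene (log axis) in replicate 1 (left point of each pair) and replicate 2 (right point), ordered by mean level. Every left point lies above its partner, and the genes span from 236 TPM for Trf in replicate 1 to 4.42 TPM for Apoh in replicate 2.

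**Figure D2:**
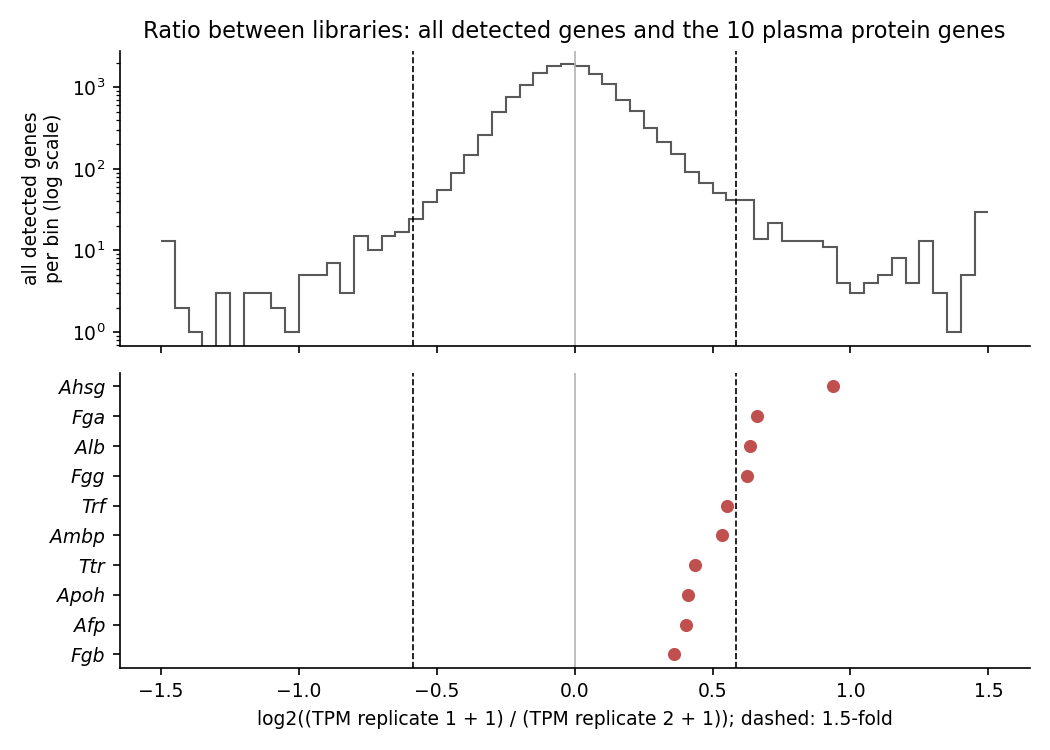
Upper panel, number of detected genes (log axis) in bins of the log2 ratio of TPM + 1 in replicate 1 over replicate 2, with the end bins holding all genes beyond them; lower panel, the 10 plasma protein genes on the same axis. All 10 lie right of 0, and Ahsg, Fga, Alb and Fgg lie right of the dashed line at 1.5-fold.

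In order of mean level, Trf and Afp were highest, then Ttr, Alb and Ambp, then Ahsg, and lowest were Fga, Fgg, Fgb and Apoh. The ranges over the libraries did not overlap between Afp and Ttr, between Ambp and Ahsg, or between Ahsg and Fga. The ranges of the other 6 pairs of neighbours overlapped. All members were higher in replicate 1, however, and 5 of these 6 pairs kept the same order within each library, the exception being Fgg and Fgb. The 4 carrier genes Trf, Afp, Ttr and Alb made up 82.1% of the summed level in replicate 1 and 83.7% in replicate 2. In the ranking of all detected genes by TPM, Trf stood at place 676 in replicate 1 and 1021 in replicate 2, and Apoh at place 10709 in replicate 1 and 11713 in replicate 2.

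Afp encodes alpha-fetoprotein, the main albumin-like carrier of fetal plasma, and lies on chromosome 5 from 90490737 to 90508907 (ENSMUSG00000054932.3, GRCm38). It stood at 190.0 TPM in replicate 1 and 143 TPM in replicate 2, from 9047 estimated counts in replicate 1 and 7947 in replicate 2. Alb, which encodes serum albumin, is its neighbour 14.1 kilobases away, from 90460897 to 90476602 on the same strand (ENSMUSG00000029368.9). It stood at 66.7 TPM in replicate 1 and 42.5 in replicate 2 from 3106 and 2307 counts in these libraries. Afp therefore exceeded Alb 2.85-fold in replicate 1 and 3.37-fold in replicate 2, so both pools gave the same order. The ratio between libraries was 1.56 for Alb, with a count ratio of 1.60 (interval 1.51 to 1.69), and 1.32 for Afp, with a count ratio of 1.35 (1.31 to 1.39). These counting intervals do not overlap, so the gap between pools was wider for Alb than counting error alone spans.

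The albumin family also includes Afm (afamin), 10.0 kilobases beyond Afp, and Gc, which encodes the vitamin D-binding protein. Afm was at 8.86 TPM in replicate 1 and 7.85 in replicate 2, or 0.0466 of the level of Afp in replicate 1 and 0.0548 in replicate 2. Its ratio between libraries was 1.11. Gc was at 35.3 TPM in replicate 1 and 20.6 in replicate 2, a ratio of 1.68. On the other side of Alb, 92.4 kilobases away, the predicted gene Gm9958 was at 4.58 TPM in replicate 1 and 5.5 in replicate 2. Alb and Gc thus had the wider gaps between pools in this family, and Afm the narrowest.

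The promoters of Alb and Afp are shown because these genes are adjacent, both were higher in replicate 1, and their levels differ. Each window runs from 250 bases before the RefSeq start to 50 bases after it, on the coding strand, from the RefSeq table on GRCm38.p6. Capitals mark GTTAAT, which the Alb and Afp windows both hold, and TTGCNNAA, a core that C/EBP proteins bind, on either strand. The Alb window is chr5:90460620-90460919 on the plus strand and the Afp window is chr5:90490464-90490763 on the plus strand.
Alb: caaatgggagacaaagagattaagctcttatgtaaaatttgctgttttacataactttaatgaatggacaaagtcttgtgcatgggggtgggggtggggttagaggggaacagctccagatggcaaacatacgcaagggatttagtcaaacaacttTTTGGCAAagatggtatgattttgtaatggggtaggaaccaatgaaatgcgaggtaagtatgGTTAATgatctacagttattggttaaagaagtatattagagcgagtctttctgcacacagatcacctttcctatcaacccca
Afp: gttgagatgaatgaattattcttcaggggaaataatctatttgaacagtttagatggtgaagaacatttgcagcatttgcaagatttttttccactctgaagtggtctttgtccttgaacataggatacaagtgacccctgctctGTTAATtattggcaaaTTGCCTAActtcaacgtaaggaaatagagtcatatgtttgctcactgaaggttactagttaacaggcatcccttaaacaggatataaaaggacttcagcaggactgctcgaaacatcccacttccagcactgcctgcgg
Positions count back from the RefSeq start and give the leftmost printed base of a match. This start lies upstream of the gene start given above, at 90460870 against 90460897 for Alb and at 90490714 against 90490737 for Afp. Counted from that gene start, each match lies farther upstream than the position printed. GTTAAT lay at position -32 in the Alb window and at -105 in the Afp window, and the C/EBP core at -94 (opposite strand) in Alb and -89 in Afp. A TATAAA run lay at -7 in the Afp window and in no other member's window.

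Windows were matched for 8 of the 10 members, without Trf and Ttr. GTTAAT occurred in 4 of the 8 (Alb, Afp, Fga and Fgb) and in 8.24% of the 27025 genes of the table. The core TTGCNNAA occurred in 5 (the same 4 and Ahsg) and in 12.2% of genes. The forkhead core TGTTTNC occurred in 7, all but Fgg, and in 22.8% of genes, CCAAT in 4 and in 41.1%, and TATAAA in 1 and in 15.7%. These motifs were chosen after the sequences were seen, both strands were searched, and overlaps between motifs were kept. The RefSeq start differs from the annotated gene start given here for some members. It lies upstream for Alb and Afp and 77 bases downstream for Fga. The windows of Ambp, Ahsg and Apoh lie wholly inside the annotated gene span. Those 3 windows are therefore promoter windows only by the RefSeq start. A match is a run of letters and not a measured binding site.

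Trf encodes transferrin, the iron carrier of plasma, and was the most abundant member. It lies on chromosome 9 from 103204001 to 103230444 on the minus strand (ENSMUSG00000032554.11) and stood at 236 TPM in replicate 1 and 160.4 TPM in replicate 2. Its values are less certain than the depth implies, since the predicted gene Gm20425 overlaps it on the same strand and 60.6% of the 31-base words of the Trf transcripts occur in that gene. Gm20425 received 0 counts in replicate 1 and 528 counts in replicate 2, listed at 0 TPM in replicate 1 and 6.45 in replicate 2. With both entries summed, the level was 236 TPM in replicate 1 and 166.9 in replicate 2 and the ratio on the log2 scale 0.49, against 0.55 for Trf alone. Replicate 1 was higher in either case. The transferrin-family gene 1300017J02Rik beside it was at 2.16 TPM in replicate 1 and 2.07 in replicate 2.

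Reads of Trf were assigned to several transcripts, but mostly to Trf-201. The full-length transcript Trf-201, of 2571 bases and 697 residues, stood at 156 TPM in replicate 1 and 114 TPM in replicate 2, a ratio without the added 1 of 1.37. Trf-209, a fragment of 433 bases annotated as a retained intron, stood at 45.5 TPM in replicate 1 and 43.7 in replicate 2, which is 19.3% of the gene's TPM and 3.37% of its counts in replicate 1, and 27.2% of its TPM and 4.88% of its counts in replicate 2. Its short length gives each count more weight on the TPM scale. Another full-length coding form, Trf-203, also of 697 residues, received 904 counts in replicate 1 and 0 in replicate 2. By counts, Trf-201 held 85.7% in replicate 1 (95% exact interval 85.1 to 86.4%) and 94.6% in replicate 2 (94.1 to 95.1%), intervals that leave out the error of assigning reads to a transcript. By posterior mean TPM the libraries lay closer, with 66.5% of the gene on Trf-201 in replicate 1 and 68.8% in replicate 2, and 6.57% on Trf-203 in replicate 1 and 1.30% in replicate 2.

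Transferrin delivers iron through its receptor, and the receptor gene Tfrc was at 73.1 TPM in replicate 1 and 86.0 TPM in replicate 2. The ligand was thus higher in replicate 1 and the receptor higher in replicate 2, and the level of Trf over Tfrc was 3.22 in replicate 1 and 1.86 in replicate 2. The ratio of Tfrc between libraries was 0.851, which is not past the 25% limit. Of all detected genes, 44.5% were higher in replicate 1. The second receptor gene, Tfr2, which is mainly hepatic and erythroid, was below 1 TPM in both libraries (0.80 TPM in replicate 1 and 0.60 in replicate 2). The iron importer gene Slc11a2 was at 24.9 TPM in replicate 1 and 24.5 in replicate 2.

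Ttr encodes transthyretin, which carries thyroid hormone and, with retinol-binding protein, vitamin A. It lies on chromosome 18 from 20665280 to 20674321 (ENSMUSG00000061808.3) and stood at 88.4 TPM in replicate 1 and 65.1 TPM in replicate 2. The gene of its partner, Rbp4, stood at 70.9 TPM in replicate 1 and 73.5 in replicate 2. Ttr was therefore 1.248 times the level of Rbp4 in replicate 1 and 0.886 times in replicate 2. The ratio between libraries was 1.35 for Ttr and 0.965 for Rbp4. Stra6, a membrane receptor for retinol-binding protein, was at 3.77 TPM in replicate 1 and 3.85 in replicate 2. The coding neighbours of Ttr, the desmoglein gene Dsg2 and the galactosyltransferase gene B4galt6, had log2 ratios of 0.02 and -0.03.

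The fibrinogen chains Fga, Fgb and Fgg lie together on chromosome 3, and assemble into a hexamer that contains each chain in equal number. Fga (ENSMUSG00000028001.12, 83026076 to 83033627) was at 11.3 TPM in replicate 1 and 6.77 TPM in replicate 2. Fgg (ENSMUSG00000033860.9, 83007724 to 83015049) was at 8.85 TPM in replicate 1 and 5.39 in replicate 2. Fgb (ENSMUSG00000033831.5, 83040141 to 83049863, minus strand) was at 7.82 TPM in replicate 1 and 5.87 in replicate 2. By TPM, Fga was the highest chain in both, at 1.44 times Fgb in replicate 1 and 1.15 times in replicate 2. By counts, Fgb was the highest, with 695 in replicate 1 and 608 in replicate 2, against 574 and 406 for Fga. The order by TPM thus rests on transcript length, which is 3810 bases for Fgb and 2083 and 2587 bases for the transcripts of Fga. Fgg was above Fgb in replicate 1 (1.13 times its level) and below it in replicate 2 (0.918 times). The count ratio between libraries was 1.68 for Fga (interval 1.48 to 1.91), 1.67 for Fgg (1.41 to 1.97) and 1.36 for Fgb (1.22 to 1.52). The intervals overlap, which does not show that the ratios are equal. Genes on either side of the cluster were near even: Lrat, which makes retinyl esters, was at 7.31 TPM in replicate 1 and 7.17 in replicate 2, and the splicing factor gene Plrg1, 5.66 kilobases from Fgb, at 72.6 TPM in replicate 1 and 73.95 in replicate 2.

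The Fga and Fgb promoters are shown with the same marks because they are the fibrinogen windows that hold GTTAAT. The Fga window is chr3:83025903-83026202 on the plus strand and the Fgb window is chr3:83049814-83050113 on the minus strand.
Fga: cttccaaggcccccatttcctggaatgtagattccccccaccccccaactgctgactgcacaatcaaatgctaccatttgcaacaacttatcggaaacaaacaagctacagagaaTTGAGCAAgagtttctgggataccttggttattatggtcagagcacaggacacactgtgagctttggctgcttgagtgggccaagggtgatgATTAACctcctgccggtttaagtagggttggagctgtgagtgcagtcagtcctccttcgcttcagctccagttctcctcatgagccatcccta
Fgb: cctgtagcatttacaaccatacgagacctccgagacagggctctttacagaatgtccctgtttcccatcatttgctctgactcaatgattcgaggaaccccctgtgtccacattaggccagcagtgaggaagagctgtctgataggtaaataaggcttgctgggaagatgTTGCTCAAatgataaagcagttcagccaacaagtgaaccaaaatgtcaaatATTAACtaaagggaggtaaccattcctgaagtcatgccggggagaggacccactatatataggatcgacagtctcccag
GTTAAT lay on the opposite strand in both, at position -43 for Fga and -29 for Fgb. The C/EBP core lay at -135 for Fga and -80 for Fgb. The Fgg window held neither run of letters.

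Fga and Fgg each divided their reads between 2 coding transcripts. In humans, an extra last exon gives a longer fibrinogen alpha chain, and alternative processing gives a longer gamma chain. Fga-201 encodes 557 residues and Fga-202 encodes 789 residues and has 1 more exon. Fga-201 held 68.1% of Fga counts in replicate 1 (95% exact interval 64.1 to 71.9%) and 62.1% in replicate 2 (57.2 to 66.8%), and these intervals overlap. Fgg-201 (436 residues) held 81.9% of Fgg counts in replicate 1 (77.2 to 85.7%) and 72.4% in replicate 2 (66.2 to 77.9%), and Fgg-202 (443 residues) the rest. These intervals overlap as well, but only between 77.2 and 77.9%. For both genes, overlap of the intervals does not show that the shares are equal. Fgg-201 stood at 7.28 TPM in replicate 1 and 3.93 in replicate 2, a ratio without the added 1 of 1.85, and Fgg-202 stood at 1.57 TPM in replicate 1 and 1.46 in replicate 2, a ratio of 1.08. The estimates for Fgg-202 rest on 61.7 counts in replicate 1 and 66.9 in replicate 2, and the intervals leave out the error of assigning reads to a transcript.

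**Figure D3:**
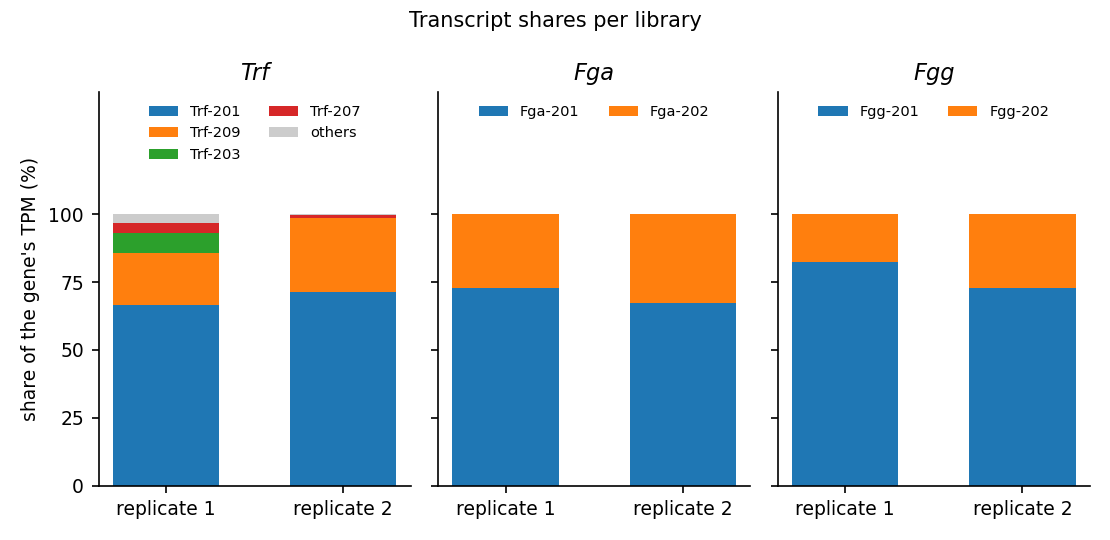
Share of each gene's TPM (percent) on its transcripts in replicate 1 (left bar) and replicate 2 (right bar) for Trf, Fga and Fgg. In replicate 1 Fgg-201 took 82.3% and Fga-201 72.8%, in replicate 2 Fgg-201 took 72.9% and Fga-201 67.3%, and Trf-203 took 7.15% in replicate 1 and none in replicate 2.

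Of the other members, Alb, Afp, Ttr, Ahsg and Fgb are annotated with 1 transcript each, and Ambp placed all its counts on Ambp-201. Apoh placed 99.1% of its counts in each library on Apoh-201. Of the 24 transcripts of the 10 genes, 19 had a TPM above 0 in either library.

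Ahsg encodes fetuin-A, an inhibitor of mineral growth in plasma, and showed the widest gap between the pools. It lies on chromosome 16 from 22891277 to 22899449 (ENSMUSG00000022868.5) and stood at 32.7 TPM in replicate 1 and 16.6 TPM in replicate 2, from 1076 counts in replicate 1 and 636 in replicate 2. The count ratio was 2.01 (interval 1.82 to 2.22), above the intervals of the 4 carriers, of Ambp and of Fgb. Among detected genes, its TPM ratio ranked 83 of 14986, or within the highest 0.554%. Its paralog Fetub (fetuin-B), 18.9 kilobases away, had 0.03 TPM in replicate 1 and 0.09 in replicate 2, from 1 and 3 counts in these libraries, so it stood at or under the limit of 3 counts. Dnajb11, an endoplasmic reticulum chaperone gene on the other side, was at 104 TPM in replicate 1 and 102 in replicate 2. Ahsg shares 1.48% of its 31-base words with the predicted gene Gm30505.

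Ambp encodes a precursor that is cut into alpha-1-microglobulin, a heme and radical scavenger, and bikunin, the protease-inhibiting light chain of inter-alpha-inhibitors. It lies on chromosome 4 from 63143275 to 63154799 on the minus strand (ENSMUSG00000028356.4) and stood at 59.6 TPM in replicate 1 and 40.9 TPM in replicate 2, a ratio of 1.45. The heavy chains that bind bikunin were much lower. Itih2 was at 4.80 TPM in replicate 1 and 3.68 in replicate 2, Itih3 at 4.19 TPM in replicate 1 and 2.72 in replicate 2, and Itih4, a related gene, at 2.26 TPM in replicate 1 and 0.89 in replicate 2, while Itih1 was at 1.01 TPM in replicate 1 and 0.35 in replicate 2. Ambp thus exceeded Itih2 12.4-fold in replicate 1 and 11.1-fold in replicate 2. Itih5, a family member, was at 10.1 TPM in both libraries. The coding genes on either side of Ambp, the zinc finger gene Zfp618 and the kinesin gene Kif12, were at 16.99 TPM in replicate 1 and 16.6 in replicate 2 and at 63.1 TPM in replicate 1 and 56.03 in replicate 2.

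Apoh encodes beta-2-glycoprotein I, a phospholipid-binding protein, and was the lowest member. It stood at 6.21 TPM in replicate 1 and 4.42 TPM in replicate 2 on 158 counts in replicate 1 and 131 in replicate 2 (ENSMUSG00000000049.7, chromosome 11, 108343354 to 108414396). The count ratio of 1.43 had the widest interval of the 10, from 1.13 to 1.82. Its annotated span overlaps the 5′ side of Prkca, which lies on the opposite strand, and the sources used here do not say whether strand was counted. Of the 31-base words of the Apoh transcripts, searched on both strands, 0.0628% occur in Prkca. Prkca was at 15.6 TPM in replicate 1 and 18.03 in replicate 2, and Cep112 on the other side at 7.42 TPM in replicate 1 and 6.16 in replicate 2.

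Other genes that cells use to take up, recycle or process these proteins were examined as a list of 27. Of these, 23 were detected, 12 of the 23 were higher in replicate 1, and the median log2 ratio was 0.02. Over 25% higher in replicate 1 were F2 and Itih3, and past the same ratio downward were the platelet integrin gene Itga2b (2.76 TPM in replicate 1 and 4.3 in replicate 2) and Tnfaip6 (2.05 TPM in replicate 1 and 3.0 in replicate 2). Of the 23, F2 alone passed 1.5-fold upward. Of all detected genes, 44.5% were higher in replicate 1. The 25% limit was passed upward by 4.82% and downward by 4.06% of them, and 1.5-fold upward by 1.47%. The list shares 8 genes with the plasma protein list described next. Fcgrt, which encodes the neonatal Fc receptor that recycles albumin, was at 134 TPM in replicate 1 and 123 in replicate 2, and its light chain gene B2m at 304 TPM in replicate 1 and 340.3 in replicate 2. Amnionless, Amn, which takes up protein together with cubilin, was at 115 TPM in replicate 1 and 102 in replicate 2, Cubn itself at 7.41 TPM in replicate 1 and 6.12 in replicate 2, and Lrp2 (megalin) at 1.93 TPM in replicate 1 and 1.75 in replicate 2. Uptake and recycling genes were therefore detected in both pools, with Fcgrt, B2m, Amn and Cubn all under 25% apart.

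A list of 40 other plasma protein genes gave 24 detected genes, of which 20 were higher in replicate 1. Among the 24, 15 were over 25% higher and 5 over 1.5-fold higher in TPM (F2, Gc, Serpinc1, C3 and Kng1), and 1 passed the smaller limit downward (C9, 2.42 TPM in replicate 1 and 3.53 in replicate 2). Of all detected genes, 44.5% were higher in replicate 1, 4.82% over 25% higher and 1.47% over 1.5-fold higher. The smaller limit was passed downward by 4.06%. The median log2 ratio was 0.385, against 0.54 for the 10 members and -0.02 for all detected genes. Highest were Apoc3 (261 TPM in replicate 1 and 193 in replicate 2) and Apoa2 (102 TPM in replicate 1 and 70.8 in replicate 2), apolipoprotein genes that the intestine also expresses, then Rbp4, and Cfb, complement factor B, at 53.1 TPM in replicate 1 and 44.3 in replicate 2. Prothrombin, F2, which cleaves fibrinogen once activated, was at 5.96 TPM in replicate 1 and 2.83 in replicate 2, a ratio of 1.82. By counts relative to all mouse gene counts, 3 of these 5 passed 1.5-fold, while C3 had a ratio of 1.43 and Serpinc1 of 1.21. Serpinc1 (antithrombin) was at 9.63 TPM in replicate 1 and 5.66 in replicate 2 on 395 estimated counts in replicate 1 and 388 in replicate 2, and Kng1 (kininogen) at 9.60 TPM in replicate 1 and 5.79 in replicate 2. Below 1 TPM in both libraries were 13 genes, such as the coagulation factor genes F5, F7, F9 and F13b. Orm1 and Orm2, the orosomucoid genes, had 0 counts in both libraries, which allows up to 0.185 TPM in replicate 1 and 0.159 in replicate 2.

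Hepatocyte genes that encode no plasma protein were examined as a list of 18 enzymes, nuclear receptors and surface proteins. Of these, 5 were detected and 10 were below 1 TPM in both libraries. For comparison, 14986 of all 43346 mouse gene entries were detected. The summed level of the list was 28.4 TPM in replicate 1 and 24.0 TPM in replicate 2. Among the highest were the nuclear receptor gene Nr1i3 (8.73 TPM in replicate 1 and 7.65 in replicate 2), Hpd of tyrosine breakdown (5.74 TPM in replicate 1 and 3.99 in replicate 2) and Arg1 (3.61 TPM in replicate 1 and 4.09 in replicate 2). Of the 5 detected genes, 3 were higher in replicate 1, Hpd alone was over 25% higher, and their median log2 ratio was 0.10. Over all detected genes these shares were 44.5% and 4.82%. Urate oxidase, Uox, which was not detected in replicate 2, stood at 2.57 TPM in replicate 1 and 0.58 in replicate 2 from 71 counts in replicate 1 and 29 in replicate 2. Tat had 0 counts in both libraries, Cyp7a1 had 0 counts in replicate 1 and 4 in replicate 2, and Cyp2e1 was at 0.27 TPM in replicate 1 and 0.19 in replicate 2. The asialoglycoprotein receptor gene Asgr1 had 10 counts in replicate 1 and 5 in replicate 2, and Asgr2 had 5 in replicate 1 and 6 in replicate 2. The part of liver cells in the levels of the members was not tested.

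Transcription factors that act on these genes in liver were mostly near even between the pools. All 17 were detected, none was over 25% higher, Foxa1 passed that limit downward (5.34 TPM in replicate 1 and 7.44 in replicate 2), and the median log2 ratio was 0.02. Over all detected genes, 4.82% passed the limit upward and 4.06% downward. Hnf4a was at 71.3 TPM in replicate 1 and 71.0 in replicate 2, Gata4 at 36.7 TPM in replicate 1 and 35.6 in replicate 2, Gata6 at 26.7 TPM in replicate 1 and 26.3 in replicate 2 and Nr2f2 at 21.8 TPM in replicate 1 and 24.3 in replicate 2. Zbtb20 and Zhx2, which repress Afp in the liver after birth, were at 17.4 TPM in replicate 1 and 15.7 in replicate 2 and at 3.59 TPM in replicate 1 and 3.46 in replicate 2.

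Markers of other cell types were examined as 3 further lists. Pancreatic acinar genes were higher in replicate 1 in all 11 detected of 14, with a median log2 ratio of 1.41. Ctrb1, a chymotrypsinogen gene, was at 2585 TPM in replicate 1 and 950 in replicate 2, Cpa1 at 525 TPM in replicate 1 and 223 in replicate 2 and Cela2a at 476 TPM in replicate 1 and 111 in replicate 2. None of the acinar genes was at 0, and the lowest were Ctrc (0.80 TPM in replicate 1 and 0.38 in replicate 2) and Pnlip (0.36 TPM in replicate 1 and 0.18 in replicate 2). Enterocyte genes were higher in replicate 1 in 14 of 15, with a median log2 ratio of 0.17, a summed level of 5981 TPM in replicate 1 and 5010 in replicate 2, and 2 over 25% higher, Apoa4 (695 TPM in replicate 1 and 482 in replicate 2) and Lct (20.9 TPM in replicate 1 and 16.4 in replicate 2). Erythroid genes, which fetal liver also holds, were detected in 8 of 8, and 6 of these were higher in replicate 1. None was over 25% higher, the median log2 ratio was 0.16, and the summed level was 102 TPM in replicate 1 and 96.2 in replicate 2. Over all detected genes, 44.5% were higher in replicate 1 and 4.82% over 25% higher. The part of these cell types in the ratios of the plasma protein genes was not tested.

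**Figure D4:**
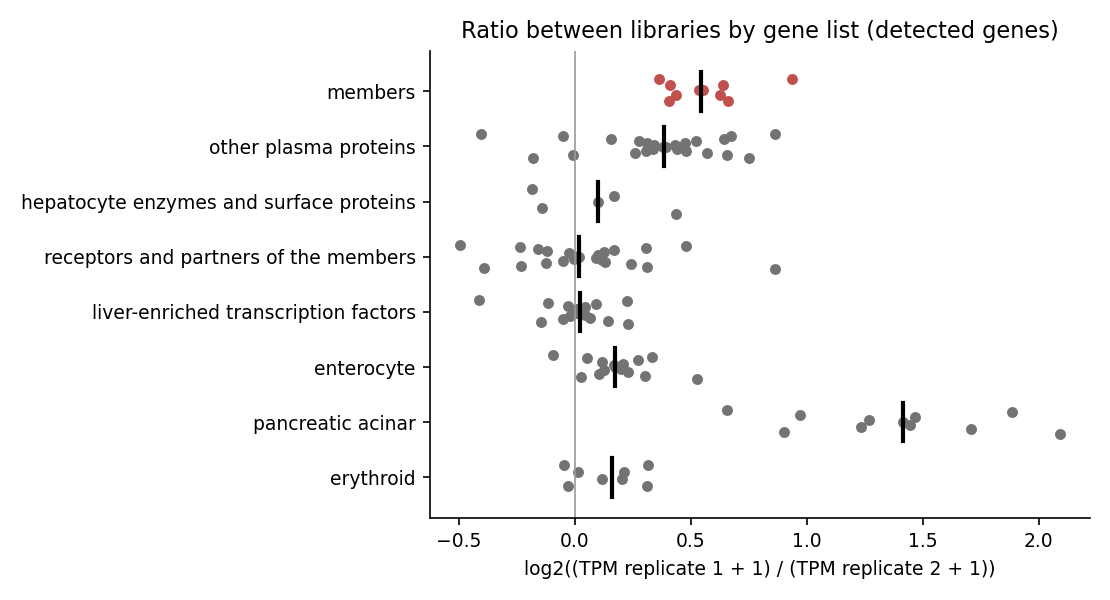
Log2 ratio of TPM + 1 in replicate 1 over replicate 2 for each detected gene (points) of the 10 plasma protein genes (top row) and 7 other lists, with the median as a black bar. The medians are 0.54 for the 10 genes, 0.385 for other plasma proteins, 0.10 for hepatocyte enzymes and surface proteins, 0.17 for enterocyte genes and 1.41 for acinar genes.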

How the data were processed

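The data are 2 total RNA libraries, each made from 10 ng of RNA extracted with the mirVana kit, per the labels' protocols. The authors deposited a gene and a transcript table per library. Per the file headers these give expected counts (estimated, so not always whole), TPM, a posterior mean TPM, FPKM, the percent of a gene on each transcript, and bounds of a TPM credibility interval, a score of unstated level that was not used for calls. The deposited readme names mm10 as assembly and M4 as annotation release. The quantifier, aligner and strand setting were not stated in the labels or files read here. TPM is scaled over all entries, 96 ERCC spike-ins included. Estimated counts total 34406872 in replicate 1 and 40669822 in replicate 2, with 33665128 (replicate 1) and 39953610 (replicate 2) assigned to mouse genes. A floor of 3 counts equals 0.125 TPM in replicate 1 and 0.107 in replicate 2 for a 1-kilobase transcript.

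Symbols and positions came from GENCODE M21 on the same assembly, by identifier without version; 98.0% of gene entries had a symbol. The 149 list entries were all matched, 1 through a RefSeq synonym. The members and lists were chosen with earlier results of these data known. Genes named from a list are its 4 highest, up to 3 that differ over 1.5-fold, and up to 4 below 1 TPM, besides the coding gene on either side of each member; others were named after their values were seen (partners and neighbours described with a member, and genes that make up a count of 5 or fewer). Intervals are exact binomial at 95%, on counts rounded to whole numbers. The libraries differed beyond sampling noise (chi-square per degree of freedom 18.3 over the 19707 genes that reached 10 counts across both), so they were kept as 2 samples. Ratios used Python 3.11.15, and edgeR 4.0.16 and DESeq2 1.42.0 in R 4.3.3 supplied scaling factors only. The ratio calculation was tested on simulated data. Words of 31 bases of the members were looked up in all other M21 transcripts on both strands. Other units, scalings, pseudocounts, fold limits and filters were tried, as was leaving out a replicate, and their effect is given at the end. Some genes that the naming rule selects are not reported here.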

Additional observations from a re-analysis of the deposited data

How the results depend on the processing

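All 10 genes stayed higher in replicate 1 under every unit, scaling and pseudocount tried: posterior mean TPM, FPKM, CPM, edgeR and DESeq2 scaling, ERCC scaling, pseudocounts of 0.1 and none, and Trf summed with Gm20425, the last chosen after seeing the data. Against 4 genes past 1.5-fold, there were 5 with CPM, edgeR and DESeq2 factors, 1 with ERCC scaling, 10 at a limit of 25% and 0 at a limit of 2. Of all detected genes, 4.82% passed the limit of 25% and 0.507% the limit of 2 upward in TPM. The shares of all detected genes under the other scalings were not computed. The median log2 ratio of 0.54 was 0.59 with CPM, 0.57 with edgeR and 0.57 with DESeq2 factors, 0.51 with Trf and Gm20425 summed and 0.29 with ERCC scaling. ERCC scaling moved the median of all detected genes to -0.27, so the gap between the medians was 0.57, against 0.56 as reported. The share of all genes past 1.5-fold, 1.47%, was 0.954% at a minimum of 5 TPM in both libraries and 2.82% at 1 TPM in either. The summed TPM was 491 to 707 with either replicate left out. By counts, the mean share of the leading transcript was 90.2% for Trf, 65.1% for Fga and 99.1% for Apoh, and by posterior mean TPM 88.9% for Apoh, against 68.9%, 70.0% and 96.5%. Shares by counts and by TPM differ through transcript length by construction; the cause of the other shifts was not tested. No paired analysis was possible because the series has 1 group. Depth limits Apoh and the fibrinogen chains most.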
